A study of Homo sapiens with 6 samples.

Results

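The core spliceosome genes described here are the genes whose symbols begin with SNRP, SNRNP, SF3A or SF3B, PRPF, LSM or U2AF followed where needed by their number, together with the RNA helicase genes DHX8, DHX15, DHX16 and DHX38. They were chosen by these names alone, and 59 of the 13345 genes in the table were members. All 59 had a mean value of 10 or more and were tested, among 12723 genes tested in all. U2AF1 and SNRPN, which carry names of the same kind, were not analysed here.

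Messenger RNA was sequenced from OE19, an established line of oesophageal adenocarcinoma cells grown in culture. One group was transfected with an LNA (locked nucleic acid) oligonucleotide against the microRNA miR-451a, and the other with the inhibitor Negative Control A. Each group had 3 samples, numbered by 3 independent experiments, and carried no other genetic change named in the labels. Both were transfected in phenol red-free medium. The labels describe X-ray irradiation of cells, but whether the cells sequenced here received it is not stated.

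Introns are removed from pre-mRNA by the spliceosome, which is built anew on each intron from small nuclear ribonucleoproteins (snRNPs), each a small nuclear RNA with its proteins. U1 recognises the 5′ splice site, U2AF and then U2 take the 3′ end and the branch point, and the U4/U6·U5 tri-snRNP joins before helicases rearrange the complex into its catalytic form. A ring of Sm proteins surrounds the U1, U2, U4 and U5 RNAs, and a related ring of LSm proteins binds U6. As the machinery is needed for nearly every spliced transcript, its genes are expressed in almost all dividing cells.

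The values are the authors' normalised values per gene, and their totals came from 14084400 to 18726400 recovered whole counts per sample. Inhibitor 3 stood apart from the other samples. Among 11095 genes whose mean value was 50 or more, 1373 in inhibitor 3 were over 2-fold away from the median of the remaining samples, against 163 and 73 in inhibitors 1 and 2 and 62 to 214 in the controls. Among the core spliceosome genes only DHX15 differed that far in inhibitor 3, and none did in any other sample. All 9 columnar adenocarcinoma markers were present, and their summed level was 157524 to 218230 with the inhibitor and 146201 to 210559 in the controls. Of the 9, 7 were higher with the inhibitor on average, and the differences lay between -0.53 (VIL1) and 0.40 (ERBB2) on the log2 scale. ERBB2 had 95861 in inhibitor 1 and 109616 in inhibitor 3, the same values as HNRNPC and VAPA there. Its difference and the summed level thus rest partly on values shared between genes. Some core spliceosome genes shared values as well. In inhibitor 1, SF3B1 and EPCAM both had 11580.1, and SNRPB2 and HDLBP both had 10538.4. VIL1 had 3619, 3767 and 1398 in the inhibitor samples and 3454, 3662.5 and 4521 in the controls, and EPCAM was also lowest in inhibitor 3. Only 2 of 8 blood cell markers were among the genes analysed, LYZ and CD79A. LYZ was high in all samples, with 18366, 17238 and 20095 in the inhibitor samples and 18209, 17405 and 17005 in the controls. CD79A had 17.6, 9.11 and 73.7 in the inhibitor samples and 4.10, 3.20 and 6.20 in the controls. The summed level of the mesenchymal markers found, 3 of 8, was 390.2 to 466 with the inhibitor and 420.1 to 440.3 in the controls. That of the squamous markers found, 5 of 7, was 214 to 269 with the inhibitor and 268 to 354 in the controls. In bulk RNA, fewer cells of one type and less RNA per cell cannot be told apart.

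The comparison asked which transcripts differed when miR-451a was inhibited. No core spliceosome gene passed an adjusted p of 0.05 in limma, where the smallest adjusted p was 0.899 for the members and also for all genes, and 0% of all tested genes passed. At an unadjusted p under 0.05 there were 0 core spliceosome genes in limma, edgeR and DESeq2, against 0.401% of all genes higher and 0.534% lower with the inhibitor in limma. Of the 59 genes, 30 were higher with the inhibitor on average, against a background of 49.4% of all tested genes. The median log2 difference was 0.01 for the core spliceosome genes and -0.003 for all tested genes. Single differences lay between -0.33 (DHX15) and 0.39 (PRPF6) on the log2 scale. Summed over the 59 genes, they took 0.779%, 0.779% and 0.695% of all values in the inhibitor samples, and 0.774%, 0.763% and 0.714% in the controls. The samples of experiment 3 were thus the lowest of their group in both.

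**Figure D1:**
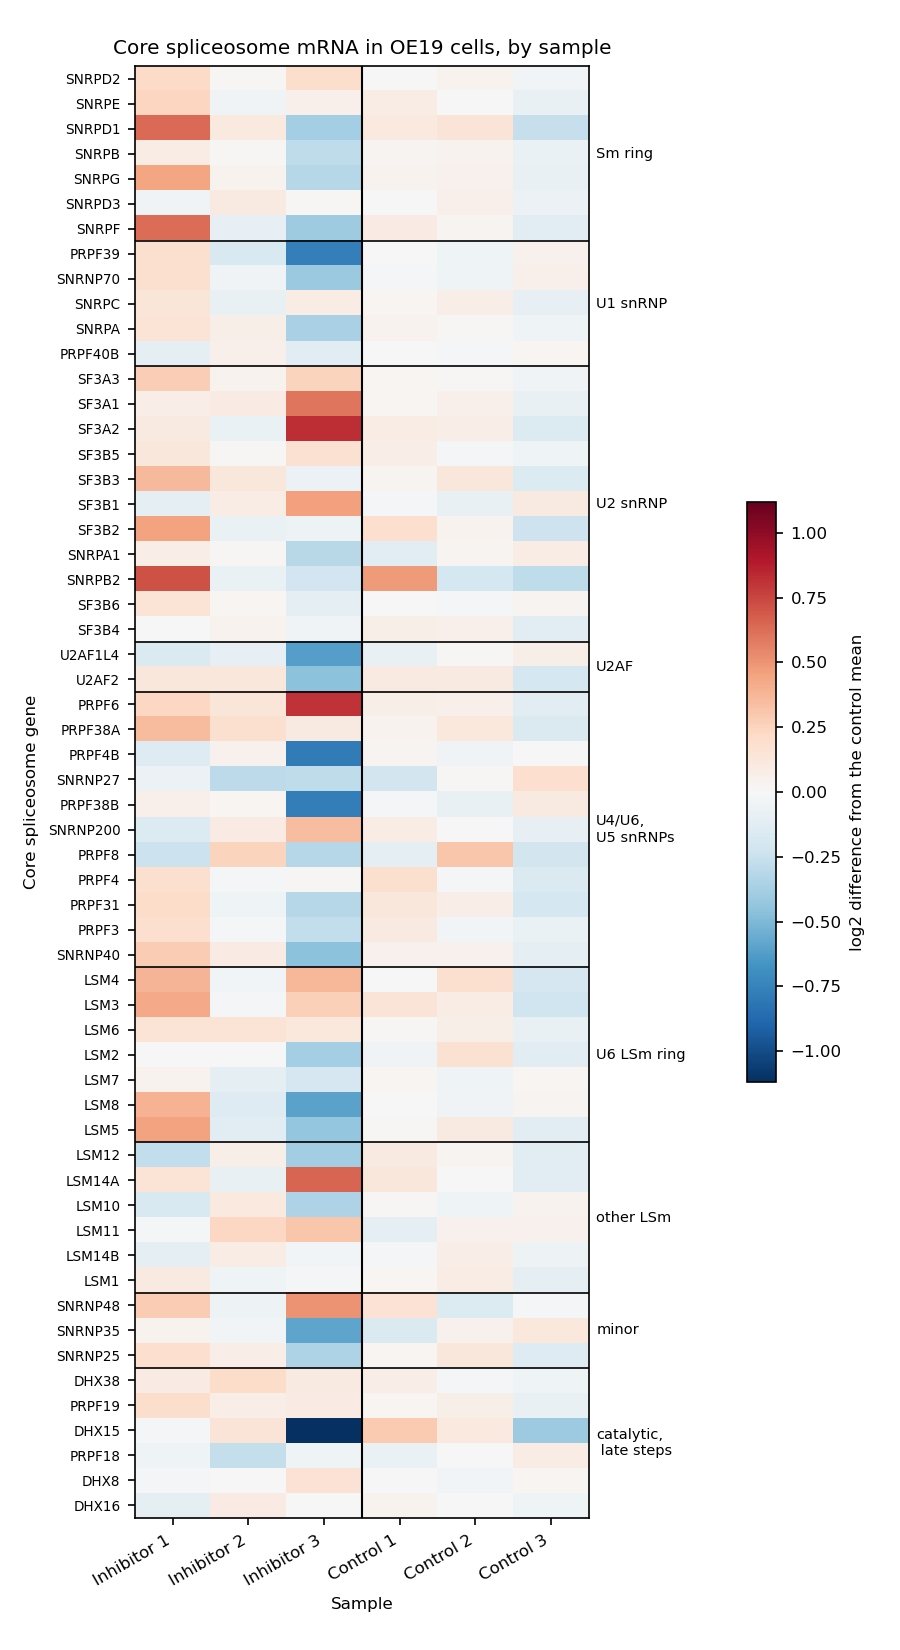
Log2 difference of 58 core spliceosome genes (rows, ordered by complex) from the mean of the controls, in each sample (columns, inhibitor samples on the left, colour scale in log2 units). The strongest colours stand in the columns of inhibitors 1 and 3, such as DHX15 at -1.12 and PRPF6 at 0.81 in inhibitor 3, whereas inhibitor 2 is pale throughout.

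The inhibitor samples differed among themselves. The median core spliceosome gene lay 0.13 above the control mean in inhibitor 1 and 0.02 above it in inhibitor 2, and was at -0.10 in inhibitor 3, on the log2 scale. In the controls the same medians were 0.03, 0.03 and -0.08. In inhibitors 1, 2 and 3, 42, 35 and 22 of the 59 genes were above the control mean. The medians of all tested genes were within 0.01 of 0 in every sample. The median of inhibitor 1 lay above those of the controls, that of inhibitor 2 among them, and that of inhibitor 3 a little below the lowest. Without inhibitor 3, 46 of the 59 genes were higher with the inhibitor, against 50.0% of all genes, and 22 differences changed sign, 19 of them to higher. Leaving out inhibitor 1 turned 9, 7 of them to lower, and leaving out negative control 3 turned 8, all to lower. Without negative control 1, and likewise without negative control 2, 5 turned, all to higher, and without inhibitor 2 there were 2. In all, 34 of the 59 genes changed sign when at least 1 of the samples was left out.

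Within experiment 1, 45 of the 59 genes were higher in the inhibitor sample than in its control, and the median difference was 0.08. Within experiment 2 there were 32 higher, with a median of 0.004. Within experiment 3 there were 29 higher, with a median of -0.11. With 1 sample a group these are values without a test. In experiment 1, no core spliceosome gene differed more than 1.5-fold in either direction, where 3.12% of all genes were that much higher and 4.51% that much lower. In experiment 2, again none did, against 2.77% higher and 2.82% lower. In experiment 3, 4 core spliceosome genes were higher by more than 1.5-fold (SF3A2, PRPF6, LSM14A and SF3A1), a share of 6.78% against 18.8% of all genes. In the same experiment 7 were lower by that much (PRPF38B, PRPF39, PRPF4B, DHX15, SNRNP35, U2AF1L4 and LSM8), a share of 11.9% against 19.6%.

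The spread within groups was smaller for these genes than for the typical gene. The median SD of the log2 values was 0.23 over the inhibitor samples and 0.09 over the controls for the core spliceosome genes. For the 11095 genes with a mean of at least 50, it was 0.28 over the inhibitor samples and 0.14 over the controls. The core spliceosome genes had a median value of 1310.1, against 539 for those genes, and the part of level in this was not tested.

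**Figure D2:**
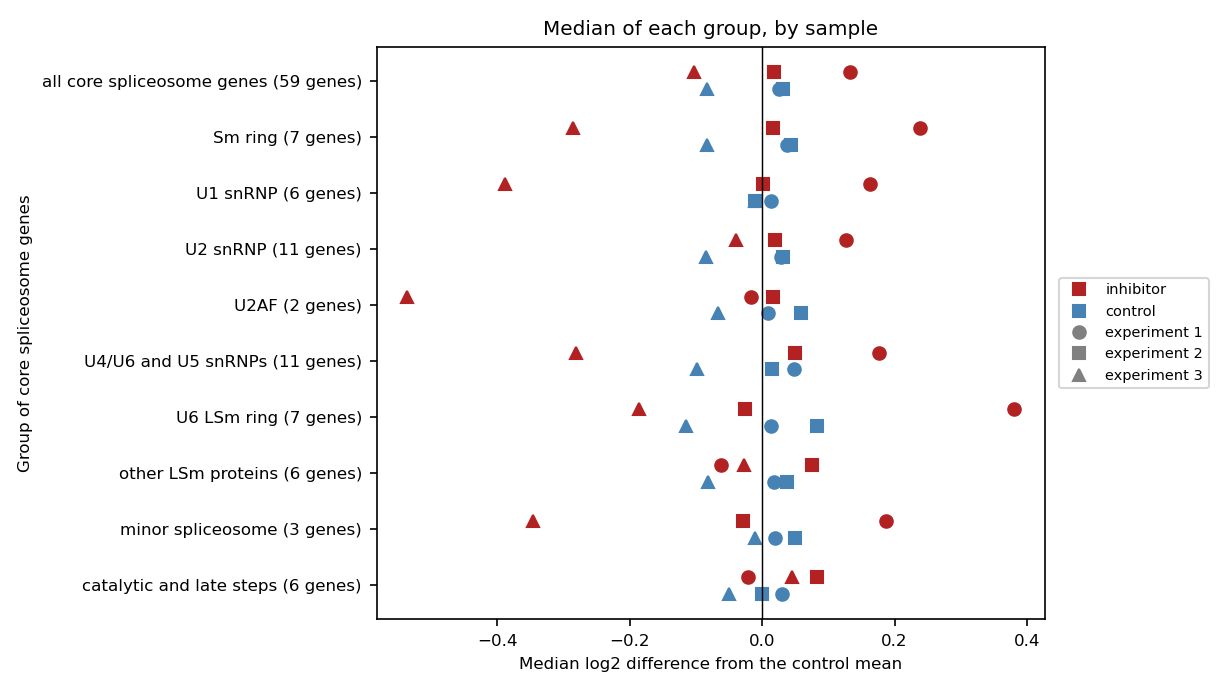
Median log2 difference from the control mean (x axis) for all 59 core spliceosome genes and for each complex (y axis), with 1 point per sample, red for inhibitor and blue for control samples and a shape per experiment. Inhibitor 1 lies to the right and inhibitor 3 to the left of the controls for the Sm ring (0.24 and -0.29), the U1 snRNP (0.16 and -0.39) and the U6 LSm ring (0.38 and -0.19). The same holds for the U4/U6 and U5 snRNPs (0.18 and -0.28), the minor spliceosome (0.19 and -0.35) and all 59 genes (0.13 and -0.10).

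Sm proteins form the ring that is loaded onto newly made small nuclear RNAs, and their genes were among those that separated inhibitor 1 from inhibitor 3. The median Sm gene was at 0.24, 0.02 and -0.29 in the inhibitor samples and at 0.04, 0.04 and -0.08 in the controls. SNRPF, encoding SmF, had 1645, 1002 and 809.5 in the inhibitor samples, against 1136, 1091 and 983 in the controls. Its highest and its lowest value were both inhibitor samples, and the averages differed by 0.04 ± 0.25 (SE, n = 3 each). SNRPD1, encoding SmD1, had 2489, 1724 and 1227 in the inhibitor samples, against 1728, 1767 and 1341 in the controls. SNRPG, encoding SmG, had 1777, 1342 and 1047 in the inhibitor samples, against 1339.9, 1347 and 1232 in the controls. In all 3 genes inhibitor 1 was above every control and inhibitor 3 below every control. SNRPD2, which encodes SmD2 and had the smallest p in the ring, had 3128, 2713 and 3079 in the inhibitor samples, against 2674, 2771 and 2626 in the controls. Inhibitors 1 and 3 were above all controls and inhibitor 2 was among them, with a difference of 0.14 ± 0.12 (unadjusted p = 0.278 in limma). SNRPB, encoding the SmB and SmB′ proteins, had 3412, 3259 and 2642 in the inhibitor samples, against 3284, 3319 and 3068 in the controls. As in SNRPF, inhibitor 1 was above and inhibitor 3 below every control, so that the groups overlapped. SNRPE and SNRPD3 differed by 0.09 ± 0.12 and 0.03 ± 0.11, and in both inhibitor 3 was among the controls. SNRPG and SNRPE have 20 and 10 named pseudogenes, but share 0% and 2.76% of their transcripts' 150-base stretches with other annotated genes. SNRPD3 shares 10.7%, and 15.8% of its exonic bases overlap another gene on the same strand. Of the 7 Sm genes, 6 were higher on average, against 49.4% of all tested genes, and 3 without inhibitor 1 or without negative control 3.

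U1 snRNP genes showed the same order of the inhibitor samples, with medians of 0.16, 0.00 and -0.39, against 0.01, -0.01 and -0.01 in the controls. SNRNP70, which encodes the U1-70K protein, had 5357, 4604 and 3563 in the inhibitor samples, against 4695, 4591 and 4948 in the controls. The inhibitor values spanned the whole control range on both sides. PRPF39, related to the yeast U1 protein Prp39, had 819.7, 643 and 424 in the inhibitor samples, against 725, 699 and 747 in the controls. Inhibitor 1 was above and inhibitors 2 and 3 were below all controls, with a difference of -0.25 ± 0.23 (unadjusted p = 0.31 in limma). In the annotation 18.5% of the exonic bases of PRPF39 lie opposite exons of FKBP3, and whether the counting used the strand is not stated in the sources used here. Such overlap was larger for PRPF40B (54.2%), LSM1 (47.9%) and PRPF31 (32.1%). SNRPA and SNRPC, for the A and C proteins of U1, and PRPF40B differed by -0.05, 0.04 and -0.06 between groups, each with an SE of 0.12 or more. Of the 6 genes, 1 was higher with the inhibitor, 5 were without inhibitor 3, 2 were without negative control 1, and 0 were without negative control 3.

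U2 snRNP genes were more often higher than lower with the inhibitor, although the count depended on single samples. The SF3A and SF3B complexes, which hold the branch point helix, make up most of this group. Of its 11 genes, 9 were higher on average, against 49.4% of all tested genes, and the median difference was 0.14. There were 6 higher without inhibitor 1, with a median of 0.03, 7 without negative control 3, and 9 or 10 when one of the remaining samples was left out. For 5 of the 11, the inhibitor sample was the higher within each of the 3 experiments, against 12.2% of all tested genes. SF3A3 (chr1:37956975-37990022, minus strand, RefSeq GRCh38.p14) had 1378, 1168 and 1350.3 in the inhibitor samples, against 1157, 1149 and 1110.1 in the controls. Each inhibitor sample was above each control, by little in experiment 2, and the difference was 0.19 ± 0.12 (unadjusted p = 0.157). SF3A1 (chr22:30331988-30356894, minus strand) had 1779, 1796 and 2557 in the inhibitor samples, against 1717, 1756 and 1591 in the controls. Here too the groups did not overlap, and most of the difference of 0.26 ± 0.17 came from experiment 3, where it was 0.68 (unadjusted p = 0.169). SF3A2, the third subunit of SF3A, had 1193, 1053 and 1974 in the inhibitor samples, against 1175, 1168 and 997 in the controls. Inhibitors 1 and 3 were above all controls, inhibitor 3 by far, and inhibitor 2 was among them.

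SF3B1, the largest SF3B subunit and a gene recurrently mutated in cancers, had 11580.1, 13244 and 17126 in the inhibitor samples, against 12344, 11809.9 and 13359 in the controls. The groups overlapped, since inhibitor 1 was the lowest of all samples and inhibitor 3 the highest, and the difference was 0.14 ± 0.21 (unadjusted p = 0.511). SF3B3, a scaffold of the SF3B complex, had 3088, 2621 and 2298 in the inhibitor samples, against 2452, 2620.0 and 2160.2 in the controls. It was higher in each pair of the same experiment, although in experiment 2 the values were all but equal. SF3B2, SF3B4, SF3B5 and SF3B6 differed by 0.11 ± 0.19, -0.00 ± 0.12, 0.10 ± 0.11 and 0.02 ± 0.12. SNRPA1, for the A′ protein of U2, was the lowest of the group at -0.07 ± 0.14, and it shares 10.7% of its transcript's 150-base stretches with other annotated genes. The U2AF subunits, which bind the polypyrimidine tract and the 3′ splice site, were not higher on average. U2AF2 had 4299.8, 4279 and 2856 in the inhibitor samples, against 4200.2, 4206 and 3425 in the controls. Inhibitors 1 and 2 were above all controls and inhibitor 3 was the lowest of all samples. Without inhibitor 3 the difference of U2AF2 was 0.13.

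Values of the groups did not overlap for 7 of the 59 genes. There were 6 genes that lay higher in every inhibitor sample than in any control (SF3A3, SF3A1, PRPF6, LSM6, DHX38 and PRPF19), a share of 10.2% against 2.71% of all tested genes. Only U2AF1L4 lay lower, a share of 1.69% against 2.9%. None of the 7 passed the test in limma, and with 3 against 3 samples the exact two-sided Mann-Whitney test cannot go below 0.1. U2AF1L4 (chr19:35742464-35745418, minus strand), a paralogue of the small U2AF subunit, had 139, 147 and 102 in the inhibitor samples, against 148, 158 and 163 in the controls. Its difference was -0.29 ± 0.20 (unadjusted p = 0.193), and 68.4% of its exonic bases overlap a readthrough gene on the same strand, so that its reads are of uncertain origin. Leaving out a sample can only keep or raise the count of 7, so its rise does not show a dependence on that sample. It was 12, 9 and 8 of the 59 genes without negative controls 1, 2 and 3, against 17.3%, 11.1% and 10.4% of all genes. It was 14, 20 and 12 without inhibitors 1, 2 and 3, against 12.2%, 30.7% and 14.1% of all genes.

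**Figure D3:**
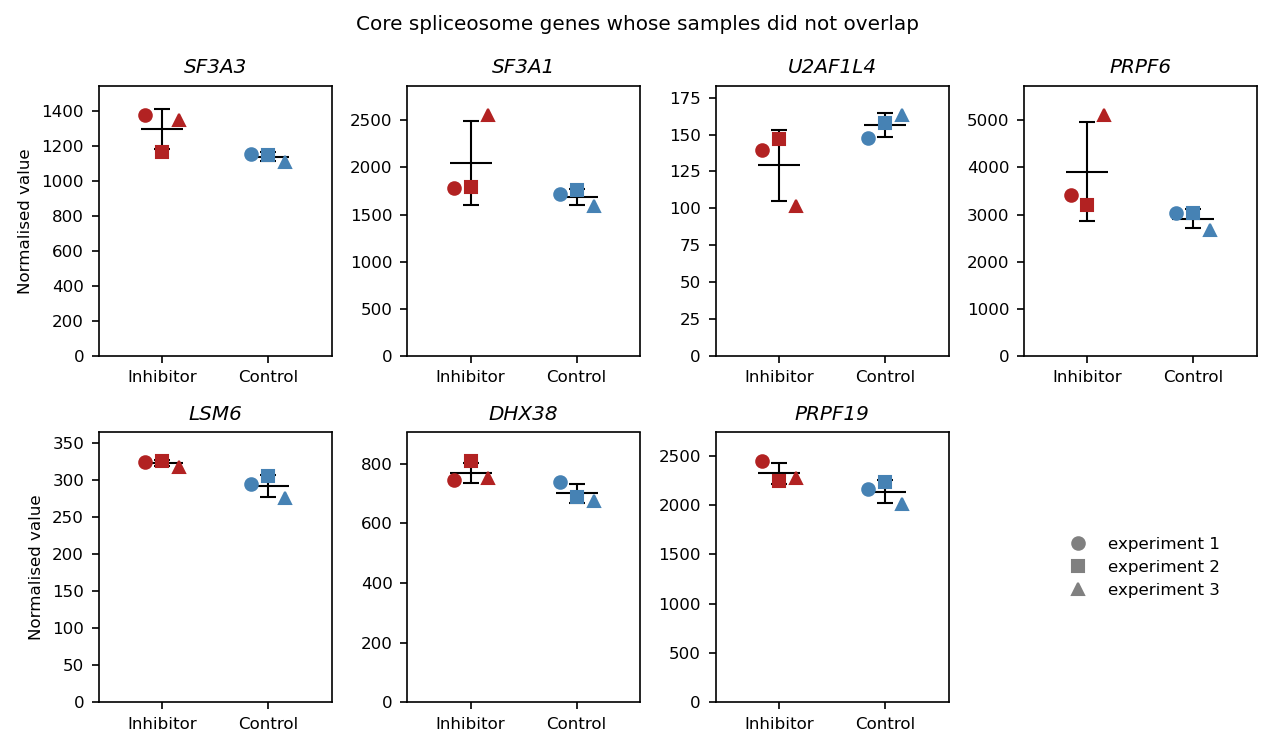
Normalised values (y axes from 0) of the 7 core spliceosome genes whose inhibitor samples (red, left) and controls (blue, right) did not overlap, with a shape per experiment, and the mean and SD (n = 3) in black. PRPF6 and SF3A1 owe most of their gap to inhibitor 3 (5112 and 2557), whereas the LSM6 inhibitor samples lie close together (318 to 325).

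Promoters of 5 genes are shown, since they include the genes with the largest positive differences among those whose groups did not overlap (PRPF6, SF3A1 and SF3A3), the one in the opposite direction (U2AF1L4) and the one with the largest difference in experiment 1 (SNRPF). Each covers 250 bases before to 50 after the start of the gene in RefSeq GRCh38.p14, written 5′ to 3′ on the strand of the gene, and capitals mark CCGGAAG, a core sequence bound by ETS factors, or its reverse complement.
PRPF6 (chr20:63980882-63981181, plus strand): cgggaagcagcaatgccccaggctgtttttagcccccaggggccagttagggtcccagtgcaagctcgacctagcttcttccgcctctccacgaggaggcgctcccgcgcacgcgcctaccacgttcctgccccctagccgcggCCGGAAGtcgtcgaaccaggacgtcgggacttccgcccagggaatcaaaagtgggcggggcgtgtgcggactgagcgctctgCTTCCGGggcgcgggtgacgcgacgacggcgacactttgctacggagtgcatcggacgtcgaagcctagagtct
SF3A3 (chr1:37989973-37990272, minus strand): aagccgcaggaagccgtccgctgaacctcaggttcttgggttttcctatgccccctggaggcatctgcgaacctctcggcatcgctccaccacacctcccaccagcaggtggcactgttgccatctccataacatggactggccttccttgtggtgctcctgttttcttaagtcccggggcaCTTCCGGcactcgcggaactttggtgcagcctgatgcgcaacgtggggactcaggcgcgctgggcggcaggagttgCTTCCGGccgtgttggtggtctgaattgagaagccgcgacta
SF3A1 (chr22:30356845-30357144, minus strand): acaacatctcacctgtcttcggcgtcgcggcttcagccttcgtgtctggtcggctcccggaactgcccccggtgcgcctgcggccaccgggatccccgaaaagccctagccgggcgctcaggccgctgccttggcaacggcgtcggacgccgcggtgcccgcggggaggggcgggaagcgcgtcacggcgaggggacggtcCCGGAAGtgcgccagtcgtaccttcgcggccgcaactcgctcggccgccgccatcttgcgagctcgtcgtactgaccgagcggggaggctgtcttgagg
U2AF1L4 (chr19:35745369-35745668, minus strand): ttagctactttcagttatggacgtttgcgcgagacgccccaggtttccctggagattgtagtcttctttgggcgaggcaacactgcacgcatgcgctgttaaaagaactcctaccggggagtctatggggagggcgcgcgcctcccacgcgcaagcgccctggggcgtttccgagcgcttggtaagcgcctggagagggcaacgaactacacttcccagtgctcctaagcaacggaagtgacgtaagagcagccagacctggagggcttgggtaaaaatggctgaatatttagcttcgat
SNRPF (chr12:95858702-95859001, plus strand): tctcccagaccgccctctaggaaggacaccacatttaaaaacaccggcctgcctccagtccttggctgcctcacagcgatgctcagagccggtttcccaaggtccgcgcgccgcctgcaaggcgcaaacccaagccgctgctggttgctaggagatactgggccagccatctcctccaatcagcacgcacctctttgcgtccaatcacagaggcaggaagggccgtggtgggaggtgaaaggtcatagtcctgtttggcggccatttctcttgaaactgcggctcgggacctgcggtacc

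Of the 59 genes, 49 matched a RefSeq promoter, with 57 promoters in all because 6 genes had more than 1. CCGGAAG, on either strand, was in 26 of these 57 promoters (45.6%), against 16.5% of the 14166 promoters of tested genes and 10.3% of all 35116 promoters in the table. The GC box GGGCGG was in 56.1% of the core spliceosome promoters, against 65.5% of those of tested genes and 45.0% of all. CCAAT was in 38.6%, against 34.3% and 34.6%. TATAAA was in 1.75%, against 6.24% and 11.5%. The NRF1 core GCGCATGC was in 5.26%, against 4.67% and 3.05% and the E-box CACGTG in 5.26%, against 9.22% and 7.26%. Motifs were counted separately and may overlap each other, and a match is a description of letters only. Of the 23 genes with CCGGAAG in a promoter, 14 were higher with the inhibitor, with a median difference of 0.05. Of the 26 without it, 11 were higher, with a median difference of -0.03. Within experiments 1, 2 and 3 the medians were 0.14, -0.02 and 0.09 with the motif. Without it they were 0.06, 0.02 and -0.13, so the order turned in experiment 2, and a link was not tested. Among the promoters shown, CCGGAAG occurs in those of PRPF6, SF3A3 and SF3A1 and in neither of the other 2. The promoters shown were chosen by their genes' differences in these data, so this split says nothing of a link.

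The U4/U6 and U5 snRNPs held both the largest positive difference and some of the lowest values. PRPF6 (chr20:63981132-64033100, plus strand) encodes the protein that bridges U5 and U4/U6 in the tri-snRNP. It had 3409, 3196 and 5112 in the inhibitor samples, against 3041, 3025 and 2678 in the controls. Every inhibitor sample was above every control, and the gaps within experiments 1, 2 and 3 were 0.16, 0.08 and 0.93. The averages differed by 0.39 ± 0.20 (unadjusted p = 0.0861, adjusted p = 0.899, in limma). Without inhibitor 2 the difference was 0.52 ± 0.21 with an unadjusted p of 0.0428 and an adjusted p of 0.467, in a setting where 10.7% of all genes passed that unadjusted threshold.

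PRPF38A, needed for activation of the complex, was also higher in every experiment, with 932, 824 and 783 in the inhibitor samples, against 749, 788 and 652 in the controls. Its groups overlapped by a single value, and the difference was 0.21 ± 0.13. Its paralogue PRPF38B had 1024, 995 and 575 in the inhibitor samples, against 972, 925 and 1055 in the controls. Inhibitor 3 was far below all other samples, and the same held for the kinase gene PRPF4B, with 1817, 2079.7 and 1164 in the inhibitor samples, against 2049.6, 1958 and 2019.6 in the controls. SNRNP200, the helicase that unwinds U4 from U6, had 4120.2, 4863 and 5822 in the inhibitor samples, against 4852, 4594 and 4292 in the controls. Its inhibitor samples spanned the controls in the opposite order, lowest in experiment 1 and highest in experiment 3. PRPF8, the scaffold at the catalytic centre, differed by -0.10 ± 0.22. The genes for the U4/U6 proteins PRPF3, PRPF4 and PRPF31 and for the U5 protein SNRNP40 differed by between -0.05 and 0.06. SNRNP27, a tri-snRNP protein, had 260.2, 223 and 224 in the inhibitor samples, against 236, 276 and 311 in the controls, with 2 inhibitor samples below all controls. It shares 6.9% of its transcript's 150-base stretches with other annotated genes, chiefly MXD1. In all, 4 of the 11 genes were higher, 8 without inhibitor 3 and 6 without negative control 1.

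The U6 LSm ring, which protects the 3′ end of U6 RNA, showed the highest group median of inhibitor 1, at 0.38, beside -0.03 and -0.19 in inhibitors 2 and 3 and 0.01, 0.08 and -0.11 in the controls. LSM5 had 1120.1, 751 and 606 in the inhibitor samples, against 825, 878 and 756 in the controls. LSM8, the subunit that marks the nuclear ring, had 677, 466 and 340.4 in the inhibitor samples, against 519, 503 and 525 in the controls. In both, inhibitor 1 was above and inhibitors 2 and 3 were below all controls. LSM4 had 2956, 2228 and 2936 in the inhibitor samples, against 2276, 2575 and 1995 in the controls. Inhibitors 1 and 3 were above all controls and inhibitor 2 among them, and LSM3 had the same order, so that the subunits of this ring did not vary together in experiment 3. Of the 7 genes, 3 were higher on average, and 6 without inhibitor 3. LSM2 and LSM7 differed by -0.13 ± 0.16 and -0.09 ± 0.12. LSM6 (chr4:146175718-146191535, plus strand) had 324, 325 and 318 in the inhibitor samples, against 295, 305 and 276 in the controls. The groups were separate and close, with a difference of 0.14 ± 0.13 (unadjusted p = 0.308).

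The other LSm proteins act outside the U6 ring. LSM14A, a component of cytoplasmic P-bodies, had 3249, 2769 and 4595 in the inhibitor samples, against 3193, 2946 and 2676 in the controls. Inhibitor 3 was the highest and the groups overlapped, with a difference of 0.24 ± 0.20. LSM12 had 392, 498 and 362 in the inhibitor samples, against 508, 484 and 436 in the controls, with 2 of the inhibitor samples below all controls. It shares 18.3% of its 150-base stretches with other annotated genes, chiefly the pseudogene LSM12P1. LSM10 and LSM11, which replace Sm proteins in the U7 snRNP of histone mRNA processing, differed by -0.13 ± 0.15 and 0.17 ± 0.20. LSM1, of the cytoplasmic ring that starts mRNA decay, and LSM14B differed by 0.01 ± 0.12 and -0.02 ± 0.11.

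The 3 members specific to the minor spliceosome, which removes the rare U12-type introns, belong to the U11 snRNP. SNRNP48 had 634, 499 and 737 in the inhibitor samples, against 582, 469 and 517 in the controls. It was higher in every experiment, but the groups overlapped. SNRNP35 had 209, 198 and 134 in the inhibitor samples, against 181, 209 and 219 in the controls, with inhibitor 3 the lowest. SNRNP25 had 838, 775 and 579 in the inhibitor samples, against 746, 802 and 667 in the controls, with a difference of -0.03 ± 0.17.

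Among the genes of the catalytic and late steps, DHX38 (chr16:72093847-72112912, plus strand), the helicase Prp16 that remodels the complex between the catalytic reactions, had 744, 808 and 752 in the inhibitor samples, against 738, 688 and 675 in the controls. The groups were separate, with a difference of 0.13 ± 0.11 (unadjusted p = 0.276), and 10.5% of its exonic bases lie opposite exons of PMFBP1 and TXNL4B. PRPF19 (chr11:60890547-60906585, minus strand), the ubiquitin ligase of the complex named after it, had 2442, 2244 and 2277 in the inhibitor samples, against 2164, 2231 and 2009 in the controls. The groups were separate by a narrow margin, with a difference of 0.12 ± 0.12 (unadjusted p = 0.327). DHX15, the helicase that takes apart spent spliceosomes, had 7602, 8579.8 and 3561 in the inhibitor samples, against 9507, 8335 and 5851 in the controls. Both samples of experiment 3 were the lowest. The difference was -0.33 ± 0.36 without the pairing, and -0.33 ± 0.20 with the experiment number as a replicate block (unadjusted p = 0.148 in limma). Without inhibitor 3 it was 0.06. DHX8 and DHX16 differed by 0.05 ± 0.12 and -0.00 ± 0.12, and PRPF18 by -0.12 ± 0.18.

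**Figure D4:**
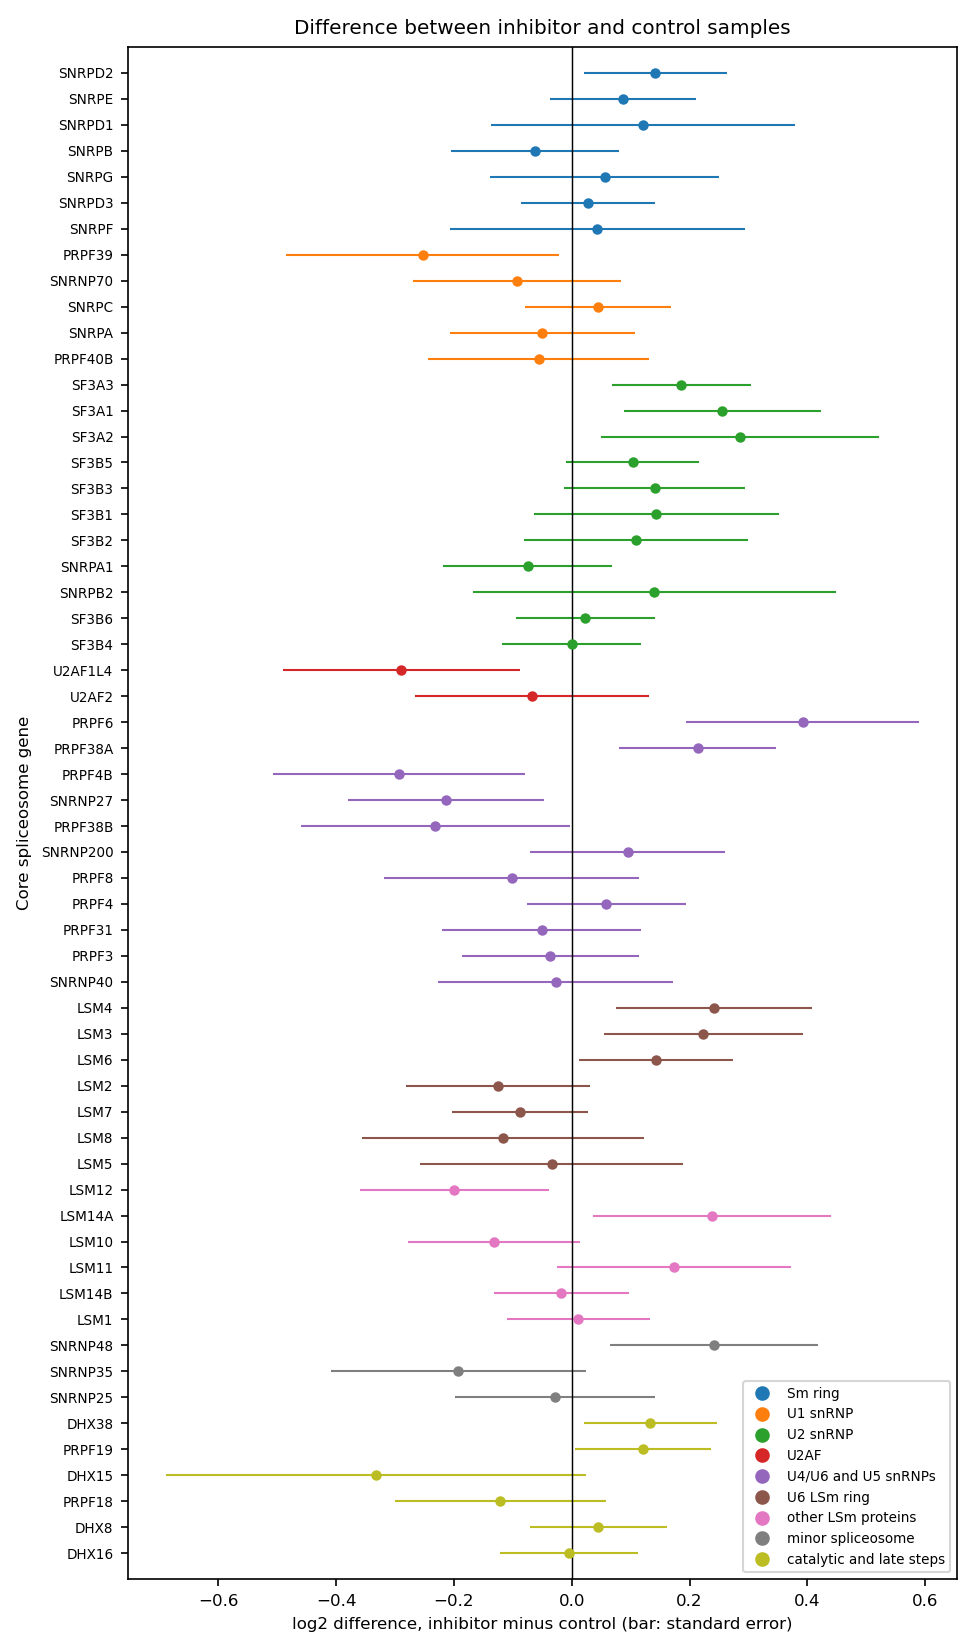
Log2 difference between inhibitor samples and controls (x axis, points) with its standard error from limma (bars) for 58 core spliceosome genes (y axis), coloured by complex. The points lie between -0.33 (DHX15) and 0.39 (PRPF6), and none passed the test.

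In all, 13 genes were higher with the inhibitor within each of the 3 experiments (SF3A3, SF3A1, SF3B3, SF3B5, SNRPB2, PRPF6, PRPF38A, PRPF4, LSM6, LSM11, SNRNP48, DHX38 and PRPF19), a share of 22% against 12.2% of all tested genes. Only 2 were lower in each (PRPF8 and U2AF1L4), a share of 3.39% against 12.2%. Some of these gaps were as small as the values can show. PRPF4 had 2044, 1791 and 1826 in the inhibitor samples, against 2043, 1791 and 1615 in the controls. In experiments 1 and 2 alone, without the sample that stood apart, 21 genes (35.6%) were higher in both, against 24.8% of all genes, and 3 (5.08%) were lower in both, against 24.5%. Genes are not independent of each other, and these shares have no test.

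Taken over both directions, experiments differed for these genes about as often as for all genes, but the directions were uneven. For 26 of the 59 genes, both samples of 1 experiment were above, or both below, all samples of the others, a share of 44.1%, close to the 44.8% of all tested genes. SNRPB2, which encodes the B″ protein of U2, had 10538, 6098 and 5563 in the inhibitor samples, against 8989, 5626 and 5279.6 in the controls. Experiment 1 was far above the others in both groups, and within each experiment the inhibitor sample was the higher, by 0.23, 0.12 and 0.08. PRPF8 had 4948, 6942 and 4691 in the inhibitor samples, against 5445, 7234 and 5060.4 in the controls. Here experiment 2 was the highest in both groups, and within each experiment the inhibitor sample was the lower. In 16 of the 59 genes both samples of experiment 3 were the lowest, where 12.7% of all genes were, and in 2 they were the highest, where 12% were. For experiment 1 both were the highest in 8 genes and the lowest in 1, where 9.73% and 9.13% of all genes were. With the experiment number as a replicate block, PRPF6 had a difference of 0.39 ± 0.21 (adjusted p = 0.848 in limma), and no core spliceosome gene passed.

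**Figure D5:**
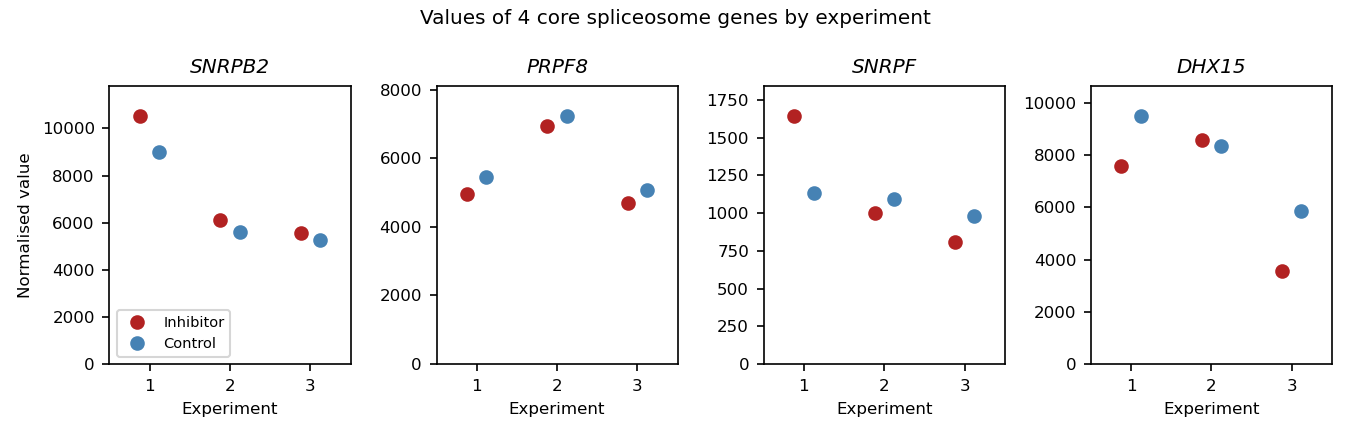
Normalised values (y axes from 0) of 4 core spliceosome genes by experiment (x axes), inhibitor samples in red to the left of controls in blue. SNRPB2 is highest in experiment 1 and PRPF8 in experiment 2 in both groups, and DHX15 is lowest in experiment 3 (3561 in the inhibitor sample and 5851 in the control).

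Among other spliceosome proteins outside the 59 genes, none of the following lists had a member past the test in either direction, and 49.4% of all tested genes were higher. Of 13 U2-associated proteins, 7 were higher with the inhibitor, with a median difference of 0.00. Of 16 tri-snRNP and B complex proteins, 12 were higher, with a median of 0.06, and of 23 proteins of the PRPF19 complex and the catalytic stage, 16 were higher, with a median of 0.10. Each of these lists held 1 gene whose groups did not overlap, all higher with the inhibitor, as 2.71% of all tested genes were. SUGP1, which partners SF3B1, had 422, 409.9 and 533 in the inhibitor samples, against 388, 365 and 369 in the controls. RBM42 had 2387, 2143 and 2473 in the inhibitor samples, against 2029.9, 2117 and 1881 in the controls. YJU2, which acts at the branching reaction, had 545, 520.2 and 560.4 in the inhibitor samples, against 482, 482 and 431 in the controls.

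Of 9 further minor spliceosome proteins, 6 were higher, with a median of 0.15. Of 18 factors for snRNP assembly and recycling, 6 were higher, with a median of -0.04. All 5 exon junction complex genes, whose products mark spliced junctions, were higher on average, with a median of 0.22. Within experiment 2, however, EIF4A3, MAGOH and MAGOHB were lower with the inhibitor, and RBM8A and CASC3 higher. The summed level of the complex was 5805, 4190 and 5200 in the inhibitor samples, against 4377, 4476 and 3806 in the controls. RBM8A had 1315, 899.7 and 1058 in the inhibitor samples, against 909, 856 and 750.4 in the controls, with a difference of 0.37 (unadjusted p = 0.0633 in limma). Inhibitor 2 was below the highest control, so that the groups overlapped.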

How the data were processed

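Messenger RNA of 6 OE19 samples was analysed from 1 table, 3 miR-451a inhibitor and 3 negative control samples, grouped by their titles. Per the methods and the submitters' processing notes, reads from stranded libraries were trimmed with cutadapt 1.8, examined with FastQC 0.11.8 and aligned with STAR 2.7.0f to GRCh38. The authors then used EDASeq to adjust gene counts within samples for GC content and length, and DESeq2 to scale between samples. The counting tool is not given in the sources used here. Deposited values are this normalised signal per gene, not raw counts. Divided by the smallest value above 0 of its column, 100% of the values were whole within 1e-06. These recovered whole numbers are counts after the adjustment, and their depth sets the precision only in part. The highest value was shared by 15 genes in every sample, as where values are set by rank within bins. Some core spliceosome genes also shared values with other genes, but neighbouring values around the 59 differed by at most 1.02-fold (U2AF2).

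In R 4.3.3, limma 3.58.1 (trend) tested log2(value + 1) of genes whose mean was 10 or more, and two-sided p-values were adjusted by Benjamini-Hochberg over 12723 genes. Differences on this scale understate changes of low genes. SE is the standard error from limma, and p-values measure only the spread between these samples. edgeR 4.0.16 and DESeq2 1.42.0 on the recovered whole numbers, TMM rescaling, other pseudocounts and filters, each sample left out and a replicate block were alternatives. The method was run on simulated data, drawn with the same spread per gene in all samples. The simulation did not model inhibitor 3 standing apart. Since the headers and the design name 3 independent experiments, same-numbered samples were taken as pairs. Deviations of same-numbered samples correlated at 0.21, 0.15 and -0.00 across genes.

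The members, roles and lists were chosen with earlier results of these data known. Core spliceosome genes given with a p were named by rule, as the gene with the highest mean and that with the smallest p (mean of at least 50) of each complex and those whose groups did not overlap. A member counted in the totals is not reported here. Other members and RBM8A were described after their values were seen. Coordinates and promoters came from RefSeq GRCh38.p14, matched by symbol. Transcript sequences and exon overlaps came from GENCODE lifted to GRCh37, joined by Ensembl identifier, and stretches of 150 bases, the read length, were compared with all other annotated transcripts.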

Additional observations from a re-analysis of the deposited data

How the results depend on the processing

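No core spliceosome gene and no other gene passed an adjusted p of 0.05 under any alternative run. Left-out samples moved the counts most. The number of core spliceosome genes whose groups did not overlap lay between 8 and 20 when a sample was omitted, against 7 with all of them. The share of all genes lay between 10.4% and 30.7%, against 5.61%. Neither can fall when a sample is omitted, so their rise was fixed in advance. The number past an unadjusted p of 0.05 ranged from 0 to 1 (PRPF6, without inhibitor 2), where 10.7% of all genes passed. The number higher with the inhibitor ranged from 22 to 46, against 30, and was highest without inhibitor 3, when 50.0% of all genes were higher. The median difference ranged from -0.04 to 0.08. Directions also turned with single samples, for 34 of the 59 genes and most often without inhibitor 3, where 22 turned. Among the members named by the fixed rule there were 8 such genes. The leave-one-out range ran from -0.278 to 0.0520 for PRPF8, -0.135 to 0.131 for SNRNP25, -0.135 to 0.0498 for SNRPB, -0.469 to 0.00467 for PRPF39 and -0.228 to 0.0665 for SNRNP70. It ran from -0.0120 to 0.270 for SF3B1, -0.167 to 0.128 for U2AF2 and -0.573 to 0.0613 for DHX15, and the cause was not tested. Under TMM rescaling, a pseudocount of 10, no filter, a mean value of at least 50, edgeR and DESeq2 with its own size factors, added after the data were seen, the number higher was 30 to 33 and no named gene changed direction. The replicate block left 0 genes past the adjusted threshold and 0 core spliceosome genes past an unadjusted p of 0.05, and changed no call. Unadjusted calls over all genes were 119 in limma, 163 in edgeR and 250 in DESeq2. DESeq2 with size factors of 1 was planned but not run, as the recovered whole numbers still carry each sample's depth. Precision is limited by 3 samples a group, which differ by experiment.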
